A study of Mus musculus with 8 samples.

Results

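Heat shock proteins and other molecular chaperones were measured in gastrocnemius (GAS) muscle after knockdown of MYTHO (MYTHO-KD). Their genes were taken from the array table by symbol, as all symbols that begin with *Hsp* or *Dnaj*, the chaperonin subunits *Cct2* to *Cct8* and their like, and *Bag1* to *Bag6*, which gave 90 of the 22664 gene symbols of the table. They comprised 8 small heat shock protein genes, 14 genes of the Hsp70 family, 3 of the Hsp90 family, 45 *Dnaj* genes, 9 *Cct* genes, 6 *Bag* genes and 5 other *Hsp* genes. The 90 genes were read from 89 probe sets, since *Hspa1a* and *Hspa1b* share one, and 4 genes were read from probe sets that name several genes. All animals were male C57/Bl6j mice, labelled as 14 weeks old. Each animal received an adeno-associated virus (AAV) with a short hairpin RNA (sh-RNA) against MYTHO in one GAS muscle (AAV sh-RNA MYTHO) and an AAV with a scrambled hairpin in the muscle of the opposite leg (AAV sh-RNA scrmb), and RNA was taken 3 weeks later. The viruses were of serotype 1, which transduces muscle well, and both hairpins were driven by the U6 promoter, which is not restricted to muscle fibres. The control legs thus also carried virus and a hairpin. There were 4 arrays per group, and the column names of the table pair them by animal, here called A to D.

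Chaperones bind unfolded or partly folded proteins. The Hsp70 proteins hold and release their clients through an ATP cycle that the J-domain proteins encoded by *Dnaj* genes start and the BAG proteins help to end by exchanging the nucleotide, Hsp90 receives clients at a late stage, and the ring-shaped CCT complex folds actin and tubulin. Small heat shock proteins bind clients without ATP and are abundant in striated muscle, where HSPB8 and BAG3 form a complex that hands damaged filamin to autophagy. Many of these genes are controlled by heat shock factor 1, which binds inverted repeats of GAA in their promoters.

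The knockdown, the muscle signal and the spread of the arrays were checked first. *D230025D16Rik*, which codes for MYTHO, had log2 signals of 11.35, 11.31, 10.78 and 11.05 in scrmb (animals A to D) and 8.16, 8.20, 8.80 and 8.08 in MYTHO. The groups did not overlap, and the level was 7.03-fold lower with AAV sh-RNA MYTHO (exact permutation test over 70 relabellings of the arrays, two-sided, p = 0.0286, the smallest that free relabelling can give). With the labels exchanged only within the 4 animals, which allows 16 relabellings, the exact p was 0.125, the smallest that the paired design can give. The array medians lay between 6.39 and 6.47, and skeletal muscle markers were bright on all arrays. *Acta1* was at the ceiling of 19.93 on every array and so could not vary, *Ckm* lay between 18.00 and 18.37 and *Des* between 17.24 and 17.75, and *Mb* (myoglobin) was higher in MYTHO by 0.55, with an unadjusted p under 0.05. All differences given here are log2 signal in MYTHO minus log2 signal in scrmb, so that 1 stands for a doubling. Since muscle was measured as a whole, fewer cells of a type and less RNA per cell cannot be told apart.

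The sequences shown here lie at the start of genes on which the results turn, from RefSeq on the mouse assembly GRCm38.p6 (mm10), 5′ to 3′ on the strand of the gene. Windows of 250 bases before and 50 bases after the start were at hand for 74 of the 90 genes, and the letters GAANNTTC, the core of the heat shock element and its own reverse complement, were sought in them. For *Hspb7* and *Bag3*, the members with the largest differences, the 100 bases before the start are shown. They lie on chr4:141420679-141420778 (+ strand) and chr7:128523483-128523582 (+ strand) and hold no match, so no letter is in capitals.
Hspb7: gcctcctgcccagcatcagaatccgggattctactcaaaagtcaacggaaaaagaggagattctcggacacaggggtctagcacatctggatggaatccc
Bag3: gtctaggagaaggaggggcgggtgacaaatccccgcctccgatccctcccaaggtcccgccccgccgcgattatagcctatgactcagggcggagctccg

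Matches are shown in capitals for genes of the heat shock response. *Bag3* has its match after the start (chr7:128523614-128523632, + strand). *Hspb1* has 2 matches before the start (chr5:135887791-135887840, + strand). *Hspa1a* (chr17:34972242-34972271, - strand) and *Hspa1b* (chr17:34959324-34959353, - strand) have the same 30 bases here, and their windows agree at 296 of 300 bases. *Dnaja1* (chr4:40722333-40722362, + strand) and *Hspe1* (chr1:55088053-55088082, + strand) have a match before the start, and *Hsph1* has one after it (chr5:149636277-149636306, - strand).
Bag3: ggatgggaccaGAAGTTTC
Hspb1: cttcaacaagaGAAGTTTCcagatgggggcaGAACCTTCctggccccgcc
Hspa1a: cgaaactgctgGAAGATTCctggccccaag
Hspa1b: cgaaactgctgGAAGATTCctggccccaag
Dnaja1: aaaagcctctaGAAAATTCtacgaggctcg
Hspe1: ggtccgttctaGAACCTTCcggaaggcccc
Hsph1: tgcagattctgGAAAGTTCtcctcagtagg

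No chaperone gene passed an adjusted p under 0.05 in the limma fit over all 22206 probe sets, in which 0.00901% of probe sets passed as higher in MYTHO and 0.018% as lower. At the threshold of the study's array analysis, a change of 2-fold or more and an unadjusted p below 0.05, *Hspb7* and *Bag3* were higher (2 of 90 genes, 2.22%, against 0.261% of all probe sets) and no member was lower (against 1.25%). By the unadjusted p alone, 6 members were higher (6.67%, against 4.81% of all probe sets) and 2 were lower (2.22%, against 7.58%). The higher members were *Hspb7*, *Bag3*, *Hspa2*, *Hspa12b*, *Dnajc27* and *Dnajc30*, and the lower ones *Dnaja1* and *Dnajc22*. With animal as a block, 8 members were higher by the unadjusted p (8.89%, against 4.94% of all probe sets in that fit) and 2 lower (2.22%, against 7.66%). The 2 groups of arrays did not overlap for 2 higher members (2.22%, against 2.59%) and 1 lower member (1.11%, against 3.87%). The MYTHO leg was higher in all 4 animals for 14 members (15.6%, against 8.94% of all probe sets) and lower in all 4 for 10 (11.1%, against 10.8%).

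The median difference over the 90 genes was 0.08, against -0.005 over all probe sets, and 57.8% of the genes were above 0, against 49.0% of all probe sets. The classes lay on both sides of 0. The median was 0.43 for the small heat shock genes, 0.29 for the *Bag* genes, 0.16 for the Hsp70 family, 0.11 for the other *Hsp* genes, 0.07 for the Hsp90 family, -0.02 for the *Dnaj* genes and -0.20 for the *Cct* genes. These medians are descriptions, without a test of any class. The pooled SD of the arrays within groups had a median of 0.269 over the members and of 0.316 over all probe sets.

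**Figure D1:**
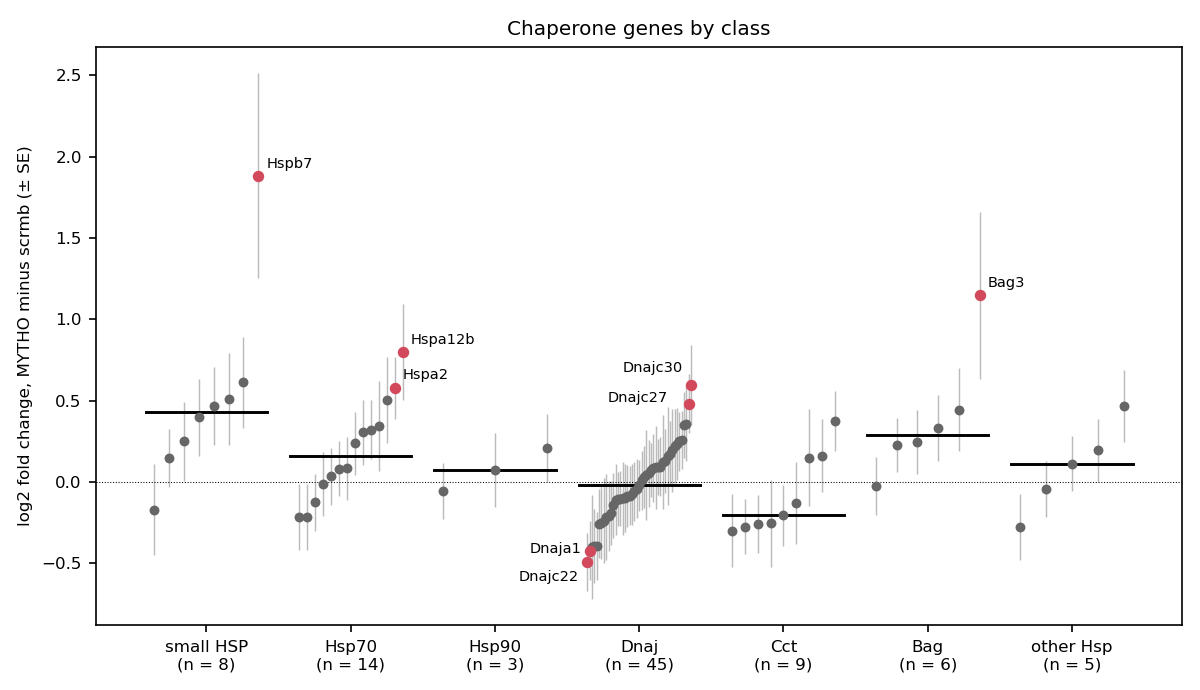
Log2 signal in MYTHO minus scrmb for the 90 chaperone genes, by class. Each point is a gene (log2 fold change with its limma SE as a grey bar, 4 arrays per group), red points have an unadjusted limma p under 0.05 and black lines are class medians. *Hspb7* at 1.88 and *Bag3* at 1.15 stand above all other members, and 6 of the 9 *Cct* genes lie below 0.

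Among the small heat shock genes, 7 of 8 had a positive difference, against 49.0% of all probe sets. The MYTHO leg was higher in every animal for 5 of them, against 8.94% of all probe sets, and these 5 include *Hspb11* and the dim *Hspb9*. *Hspb7*, which codes for a small heat shock protein of heart and skeletal muscle that binds filamin C, showed the largest difference of all 90 members. Its log2 signals were 16.63, 15.71, 14.89 and 14.23 in scrmb (animals A to D) and 17.94, 18.02, 17.84 and 15.19 in MYTHO. The MYTHO leg was the higher one in each animal, by 1.31, 2.31, 2.95 and 0.96, but the groups overlapped, because the MYTHO leg of animal D lay below the scrmb legs of animals A and B. The difference was 1.88 ± 0.63 (SE), or 3.69-fold (limma adjusted p = 0.259, and 0.158 with animal as a block). The unadjusted p was 0.0115, and 0.000215 with animal as a block. Without a block it was 0.0809 with animal C left out, where the difference was 1.53, and 0.065 with a robust variance trend. No fit with the block was run with arrays left out. Without the MYTHO array of animal D the difference was 2.57 (unadjusted p of 0.000158 in limma), and without both arrays of that animal it was 2.19 (unadjusted p of 0.000182, limma adjusted p = 0.0807).

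Slow fibres are the oxidative fibre type in which many small heat shock proteins are abundant. Of 8 slow-fibre markers (*Myh7*, *Myl2*, *Myl3*, *Tnnt1*, *Tnni1*, *Tnnc1*, *Atp2a2* and *Myh7b*), 8 had a positive difference, 7 had an unadjusted p under 0.05 and 6 of these were at least 2-fold higher. Over all probe sets 4.81% were higher and 7.58% lower by that p, and 0.261% were at least 2-fold higher with it. The mean log2 signal of the 8 markers was 12.33, 10.80, 10.77 and 10.56 in scrmb (animals A to D) and 13.47, 13.07, 13.36 and 10.56 in MYTHO. The dimmest of them, *Myh7b*, was still at 5.36 or more on every array. Within animals the list mean differed by 1.14, 2.28, 2.59 and 0.00. In animal D single markers went both ways, from -0.41 for *Myl2* to 0.44 for *Tnni1*, around this mean of 0.00, and *Hspb7* differed by 0.96 there. The mean of 6 fast-fibre markers stayed between 19.52 and 19.71, close to the upper end of the signal scale at 19.93. Of 4 satellite cell and regeneration markers (*Pax7*, *Myod1*, *Myog* and *Myh3*), all 4 had a positive difference and 1 passed the unadjusted p, *Myog* at 0.65, while *Myh3* differed by 0.71 and *Pax7* by 0.00. Their mean log2 signal lay between 4.94 and 5.68 in scrmb and between 5.40 and 6.20 in MYTHO, and differed within animals A to D by 0.62, 0.54, 0.45 and -0.09. Of 4 fibroblast and matrix markers, *Dcn* (decorin) was lower without overlap, by a difference of -0.60 with an unadjusted p of 0.0085 in limma, and the other markers (*Col1a1*, *Col3a1* and *Pdgfra*) did not pass that p. No marker of macrophages, T cells, blood, adipocytes or Schwann cells passed it, but some of these list means were uneven between the legs. Within animals A to D the adipocyte mean differed by 2.20, -2.05, -1.09 and 0.91, and the blood mean by -1.22, 0.235, 0.74 and 1.535. The Schwann cell mean differed by -0.40, -0.72, -1.29 and 0.26. The macrophage and T cell means differed less, by between -0.28 and 0.21. The part of fibre type, regeneration, matrix cells or these other cell types in the differences of the chaperone genes was not tested.

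**Figure D2:**
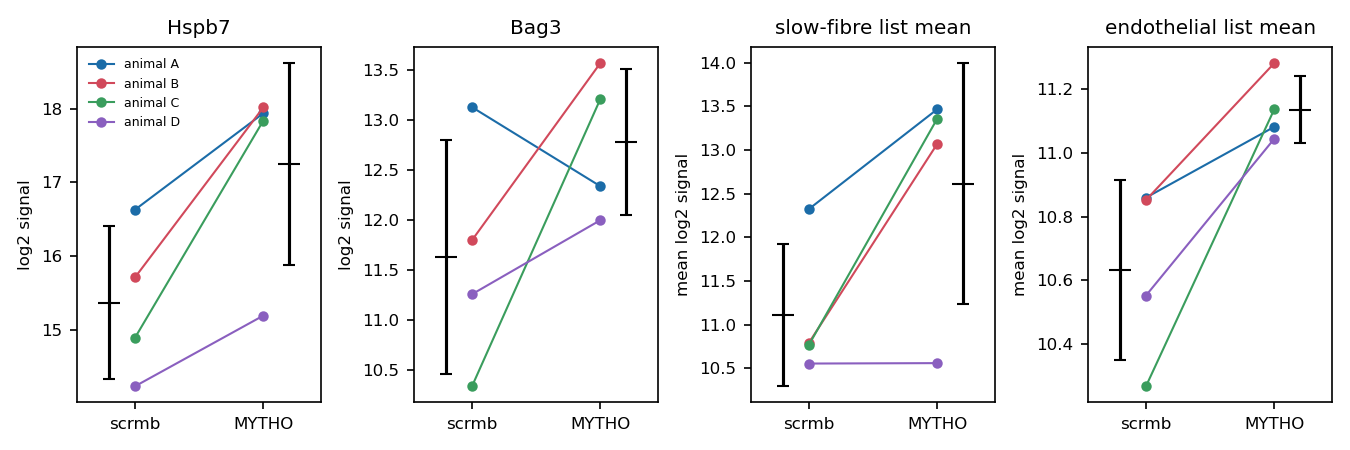
Log2 signals of *Hspb7* and *Bag3* beside the mean log2 signals of the slow-fibre and endothelial marker lists, in the scrmb and MYTHO leg of each animal. Coloured lines join the legs of 1 animal and black bars are group means with SD (n = 4). In animal D the slow-fibre mean is 10.56 in both legs, over markers that differ by -0.41 to 0.44, and *Hspb7* goes from 14.23 to 15.19. The endothelial mean is higher in the MYTHO leg of all 4 animals.

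*Hspb11*, whose product is an intraflagellar transport protein rather than a chaperone, had log2 signals of 4.48, 5.52, 5.64 and 5.32 in scrmb and 5.57, 6.44, 5.84 and 5.56 in MYTHO. All 4 animals were higher in the MYTHO leg, with overlap of the groups, and the difference was 0.61 ± 0.28 (limma adjusted p = 0.405). With animal as a block its unadjusted limma p was 0.0204. *Hspb2*, which codes for a partner of HSPB3 in muscle and lies within the span of *Cryab* on chromosome 9, was at 8.43, 8.85, 8.41 and 8.86 in scrmb and at 9.06, 9.72, 8.64 and 9.0 in MYTHO. It too was higher in all 4 animals while the groups overlapped, and it differed by 0.47 ± 0.24 (limma adjusted p = 0.457, with an unadjusted p of 0.0436 with the block). Without *Hspb11* the class median was 0.40, and it was also 0.40 without *Hspb7*.

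*Hspb1* (HSP27) had log2 signals of 10.39, 10.52, 9.65 and 10.25 in scrmb and 10.54, 11.40, 10.83 and 10.09 in MYTHO, higher in animals A, B and C and lower in animal D, with a difference of 0.51 ± 0.28 (limma adjusted p = 0.498). *Hspb6* (HSP20) was at 19.46, 19.12, 18.75 and 18.89 in scrmb and at 19.39, 19.59, 19.58 and 18.66 in MYTHO. Its animals were divided, with B and C higher and A and D lower, and its difference was 0.25 ± 0.24. *Hspb8*, the partner of BAG3, was at 13.86, 14.40, 14.33 and 14.57 in scrmb and at 14.65, 13.30, 14.12 and 14.41 in MYTHO. It was higher only in animal A and lowest in the MYTHO leg of animal B, and its difference of -0.17 ± 0.28 turned to 0.14 with animal B left out. *Hspb3* and *Hspb9* differed by 0.40 and 0.15, both higher in every animal. *Hspb9* lay between 2.86 and 3.46 on all arrays, near the lowest value of any probe set (2.38).

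Among the *Bag* genes, 5 of 6 had a positive difference. *Bag3*, which codes for the Hsp70 and HSPB8 partner that leads filamin to autophagy in muscle, had log2 signals of 13.13, 11.80, 10.34 and 11.26 in scrmb (animals A to D) and 12.34, 13.57, 13.21 and 12 in MYTHO. It was higher in the MYTHO leg of animals B, C and D, by 1.77, 2.87 and 0.74, and lower in that of animal A, by a difference of -0.79. The group difference was 1.15 ± 0.51, or 2.22-fold, with overlapping groups (limma adjusted p = 0.390). Its unadjusted p of 0.0451 passed 0.05 on the full table, but was 0.051 among the upper 75% of probe sets, 0.119 with a robust variance trend and 0.291 with animal C left out, where the difference was 0.57. Single arrays also moved it. Without the scrmb array of animal C the difference was 0.72 (unadjusted p of 0.152 in limma), and without that of animal A it was 1.65 (unadjusted p of 0.00233). Without both arrays of animal A it was 1.79 (unadjusted p of 0.00245 in limma). *Bag1*, *Bag2*, *Bag4* and *Bag6* differed by 0.23, 0.25, 0.44 and 0.33, and *Bag5* by -0.02, none with an unadjusted p under 0.05. *Hspb7* and *Bag3* had the widest spread within groups of the members named, with pooled SDs above those of 99.9% and 99.7% of all probe sets.

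**Figure D3:**
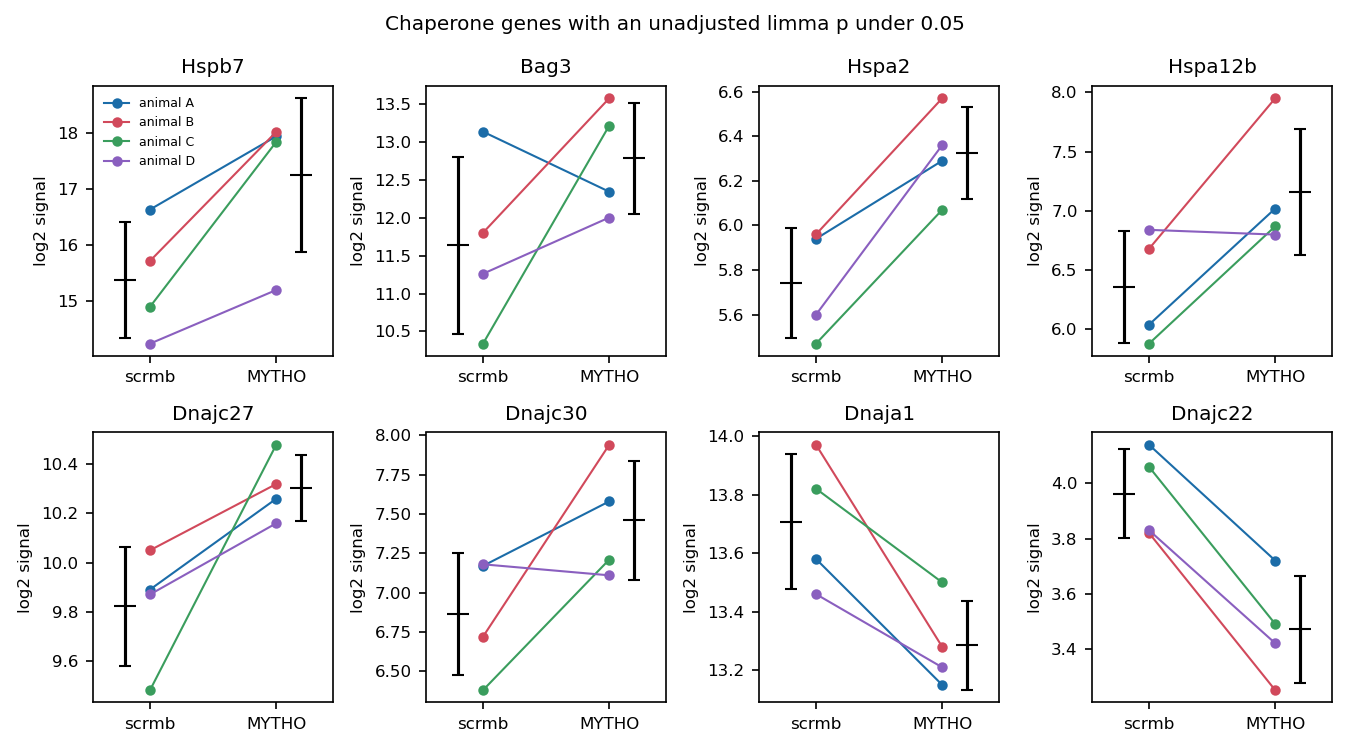
Log2 signals of the 8 chaperone genes with an unadjusted limma p under 0.05, in the scrmb and MYTHO leg of each animal. Coloured lines join the legs of 1 animal, black bars are group means with SD (n = 4) and each panel has its own axis. *Hspb7*, *Hspa2* and *Dnajc27* are higher in the MYTHO leg of every animal, *Dnaja1* and *Dnajc22* lower in every animal, and *Bag3* crosses in animal A.

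The Hsp70 family had 10 of 14 members above 0. *Hspa2*, a member best known from male germ cells, was at 5.94, 5.96, 5.47 and 5.60 in scrmb and at 6.29, 6.57, 6.07 and 6.36 in MYTHO. Every MYTHO array lay above every scrmb array, and the difference was 0.58 ± 0.19, or 1.49-fold (limma adjusted p = 0.251). Its unadjusted p was 0.0103, the lowest of the 90 genes without a block, and 0.0534 with animal D left out. With animal as a block the unadjusted p was lower for *Hspb7* (0.000215) and *Hspa12b* (0.0088) than for *Hspa2* (0.0104).

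*Hspa12b*, a distant Hsp70 relative known from endothelial cells, was at 6.04, 6.68, 5.88 and 6.84 in scrmb and at 7.02, 7.95, 6.87 and 6.80 in MYTHO. It was higher in animals A, B and C and within 0.04 in animal D, so that the groups overlapped, and the difference was 0.80 ± 0.30, or 1.74-fold (limma adjusted p = 0.304). Of 4 endothelial markers (*Pecam1*, *Cdh5*, *Kdr* and *Tek*), all 4 had a positive difference and 2 passed an unadjusted p under 0.05, against 4.81% of all probe sets as higher. These were *Pecam1* at 0.45 and *Tek* at 0.86. The mean log2 signal of the 4 markers lay between 10.27 and 10.86 in scrmb and between 11.05 and 11.28 in MYTHO. Within animals A to D the mean of the markers differed by 0.22, 0.43, 0.87 and 0.49, where *Hspa12b* differed by 0.98, 1.27, 0.99 and -0.04. The dimmest of these markers, *Tek*, was at 7.70 or more on every array. Their part in the difference of *Hspa12b* was not tested. *Hspa12b* lost its unadjusted p under 0.05 without the scrmb array of animal A (0.0544) or C (0.0626), the MYTHO array of animal B (0.062), where the difference was 0.54, or both arrays of animal A (0.0656) or C (0.0545).

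The Hsp70 genes of the heat shock response and of the organelles differed less. *Hspa1a* and *Hspa1b*, the heat-inducible pair that cannot be told apart here, were at 6.50, 6.81, 6.50 and 7.11 in scrmb and at 6.46, 6.77, 6.20 and 6.63 in MYTHO. All 4 animals were lower in the MYTHO leg, by 0.04 in A and B and more in C and D, and the difference was -0.21 ± 0.20. *Hspa8*, the constitutive cytosolic HSC70, was at 19.20, 19.28, 19.22 and 18.90 in scrmb and at 18.95, 19.20, 19.11 and 18.84 in MYTHO, also lower in each animal, with a difference of -0.12 ± 0.17 (limma adjusted p = 0.822).

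*Hspa5* (BiP), the Hsp70 of the endoplasmic reticulum (ER), was at 14.82, 14.88, 15.11 and 14.90 in scrmb and at 15.13, 14.84, 15.13 and 14.75 in MYTHO, with animals on both sides and a difference of 0.03 ± 0.17. *Hspa9* (mortalin), the mitochondrial Hsp70, was at 12.71, 12.76, 12.98 and 12.84 in scrmb and at 12.34, 12.94, 13.05 and 12.91 in MYTHO. Only animal A was lower, and the difference was -0.01 ± 0.19, which turned to 0.03 when each array was centred on its median. *Hsph1* (HSP105), an exchange factor for Hsp70, was at 10.99, 11.27, 10.90 and 10.69 in scrmb and at 10.97, 11.55, 11.39 and 11.16 in MYTHO, higher in animals B, C and D, with a difference of 0.30 ± 0.20. The other members of the family (*Hspa4*, *Hspa4l*, *Hspa12a*, *Hspa13*, *Hspa14* and *Hspa1l*) differed by between 0.08 and 0.50. The family median was 0.27 without *Hspa1a* and *Hspa1b*.

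The Hsp90 genes stayed close to 0. *Hsp90aa1*, the inducible cytosolic form, was at 10.46, 11.45, 10.84 and 11.05 in scrmb and at 10.72, 11.05, 11.26 and 11.07 in MYTHO, with animal B lower and the others higher, and differed by 0.07 ± 0.23. *Hsp90ab1*, the constitutive cytosolic form, was at 15.33, 16.01, 15.86 and 16.14 in scrmb and at 15.99, 16.23, 15.85 and 16.11 in MYTHO, higher in animals A and B, and differed by 0.21 ± 0.21. *Hsp90b1* (GRP94), the ER form, was at 13.35, 13.34, 13.28 and 12.99 in scrmb and at 13.17, 13.06, 13.38 and 13.13 in MYTHO, lower in animals A and B, and differed by -0.06 ± 0.17. The groups overlapped for all 3, and the limma adjusted p ran from 0.736 to 0.932.

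The 45 *Dnaj* genes were evenly divided, with 22 above 0 and 23 below. *Dnajc27*, which codes for a small GTPase with a J domain, was at 9.89, 10.05, 9.48 and 9.87 in scrmb and at 10.26, 10.32, 10.48 and 10.16 in MYTHO. All MYTHO arrays lay above all scrmb arrays, and the difference was 0.48 ± 0.18 (limma adjusted p = 0.310). Its unadjusted p was 0.0685 without the scrmb array of animal C, 0.055 without the MYTHO array of animal C and 0.139 without both, where the difference was 0.31.

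*Dnajc30*, which codes for a mitochondrial J-domain protein, was at 7.17, 6.72, 6.38 and 7.18 in scrmb and at 7.58, 7.94, 7.21 and 7.11 in MYTHO. Animals A, B and C were higher and animal D was slightly lower, the groups overlapped, and the difference was 0.60 ± 0.25 (limma adjusted p = 0.352). Its unadjusted p was over 0.05 without the scrmb array of animal B (0.0722) or C (0.103), the MYTHO array of animal A (0.0686) or B (0.102), or both arrays of animal B (0.185, difference 0.39) or C (0.0773).

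*Dnaja1*, a cytosolic partner of Hsp70, was at 13.58, 13.97, 13.82 and 13.46 in scrmb and at 13.15, 13.28, 13.50 and 13.21 in MYTHO. Each animal was lower in the MYTHO leg while the groups overlapped by the MYTHO array of animal C, and the difference was -0.42 ± 0.18, or 1.34-fold lower (limma adjusted p = 0.372). Its probe set also names *Mir207*. The unadjusted p of 0.0386 was 0.0612 after median centring, ran from 0.0509 to 0.155 with each animal left out in turn, and was also over 0.05 without the scrmb array of animal B (0.115) or C (0.0831) or the MYTHO array of animal A (0.0917), B (0.0628) or D (0.0787). *Dnajc22*, which codes for a membrane protein with a J domain, was dim, at 4.14, 3.82, 4.06 and 3.83 in scrmb and at 3.72, 3.25, 3.49 and 3.42 in MYTHO. All of its MYTHO arrays lay below all of its scrmb arrays, with a difference of -0.49 ± 0.18 (limma adjusted p = 0.290), and its unadjusted p was 0.0516 and 0.0588 with animals B and C left out. *Dnajc22* was not among the upper 75% of probe sets by mean log2 signal.

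*Dnajb1* (HSP40), which starts the ATP cycle of Hsp70 in the heat shock response, was at 7.35, 7.55, 7.01 and 6.81 in scrmb and at 7.13, 8.0, 7.10 and 6.66 in MYTHO, with 2 animals on either side and a difference of 0.04 ± 0.28. *Dnajb6*, in which mutations cause a limb-girdle muscular dystrophy, was at 14.33, 14.47, 14.44 and 14.16 in scrmb and at 14.24, 14.22, 14.44 and 14.09 in MYTHO. No animal was higher in the MYTHO leg, and the difference was -0.10 ± 0.17 (limma adjusted p = 0.859). The remaining 39 *Dnaj* genes differed by between -0.40 and 0.36, none with an unadjusted p under 0.05. Among them *Dnajb2*, *Dnajc12*, *Dnajc15* and *Dnaja4* were higher in all 4 animals, and *Dnaja2*, *Dnajb3* and *Dnajb7* lower in all 4. The median was 0.00 for 4 *Dnaja* genes, -0.07 for 13 *Dnajb* genes and -0.005 for 28 *Dnajc* genes.

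The *Cct* genes code for subunits of the CCT chaperonin and their like, and 6 of 9 had a negative difference, but none had an unadjusted p under 0.05. *Cct2* went the other way, at 13.58, 13.67, 13.57 and 14.08 in scrmb and at 13.88, 14.29, 14.15 and 14.09 in MYTHO. It was higher in all 4 animals, by 0.01 in animal D, and differed by 0.38 ± 0.19 (limma adjusted p = 0.438). *Cct4*, *Cct5* and *Cct8* differed by -0.30, -0.26 and -0.27, of which *Cct4* and *Cct8* were lower in all 4 animals. *Cct3*, *Cct6a* and *Cct8l1* differed by -0.13, -0.20 and -0.25, and *Cct6b* and *Cct7* by 0.15 and 0.16. *Cct6b*, *Cct7* and *Cct8l1* were dim, between 4.56 and 6.35 on all arrays. Over the 6 *Cct* genes among the upper 50% of probe sets, which leave these out, the median was -0.23 and 5 were below 0.

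**Figure D4:**
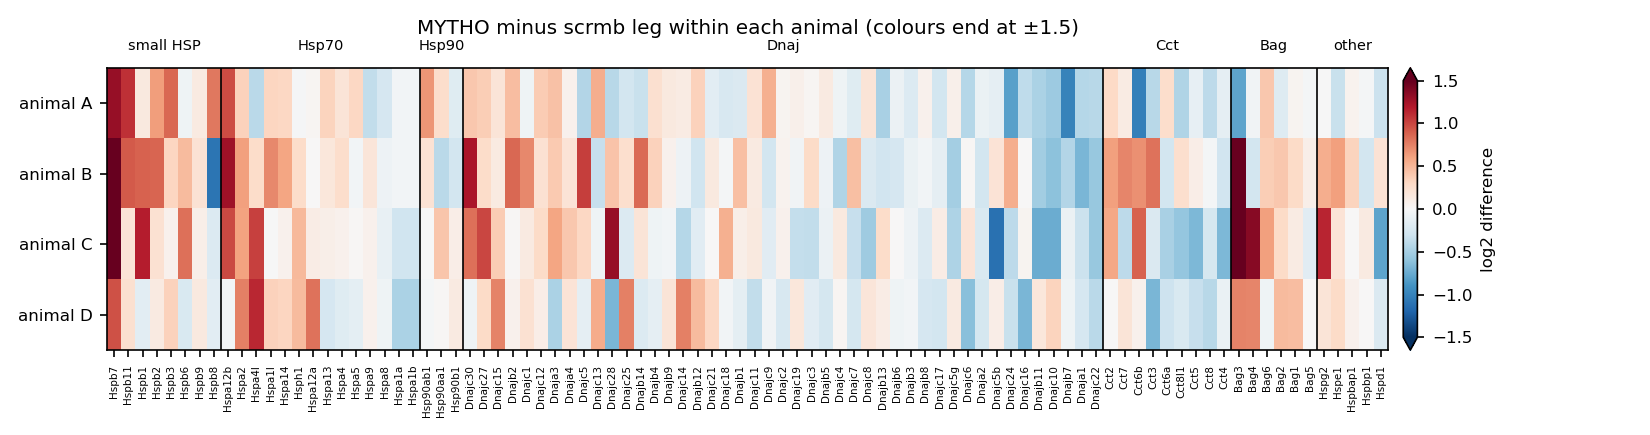
Difference between the MYTHO and scrmb leg of each animal for the 90 chaperone genes. Columns are genes, ordered by class and then by group difference, rows are animals A to D, and colours run from a log2 difference of -1.5 (blue) to 1.5 (red). *Hspb7* is red in all 4 rows, *Bag3* is blue in animal A at -0.79 and red in the other rows, and *Hspb8* ranges from 0.79 in animal A to -1.10 in animal B.

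Of the other *Hsp* genes, *Hspd1* (HSP60), the mitochondrial chaperonin, was at 12.35, 12.49, 12.84 and 12.52 in scrmb and at 12.03, 12.71, 12.05 and 12.30 in MYTHO, lower in animals A, C and D, and differed by -0.28 ± 0.20. Its lid *Hspe1* (HSP10), whose gene overlaps *Hspd1* on chromosome 1, differed by 0.19 ± 0.19, with the opposite sign. *Hspg2* codes for the matrix protein perlecan, not for a chaperone. It was at 9.97, 9.74, 9.04 and 9.65 in scrmb and at 9.96, 10.29, 10.18 and 9.84 in MYTHO, higher in animals B, C and D, and differed by 0.47 ± 0.22 (limma adjusted p = 0.417). Without it the median of these genes was 0.04.

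By compartment and role, 15 genes of the heat shock response had a median difference of 0.07, with *Bag3* higher and *Dnaja1* lower by the unadjusted p. The 12 members that act in the ER had a median of 0.06 and none past that p, and 10 mitochondrial members had a median of 0.10, with *Dnajc30* higher. A set of 9 genes known from muscle (*Hspb1*, *Hspb2*, *Hspb3*, *Hspb6*, *Hspb7*, *Hspb8*, *Bag3*, *Dnajb5* and *Dnajb6*) had a median of 0.40, with *Hspb7* and *Bag3* higher.

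Genes that work with the chaperones were read from the same fit, and none passed an adjusted p under 0.05. The counts below are by the unadjusted p, which 4.81% of all probe sets passed as higher and 7.58% as lower. Of 14 relatives and exchange factors of Hsp70 and the small heat shock proteins, none was lower by the unadjusted p, and *Cryab* was higher. *Cryab* (HSPB5, alphaB-crystallin), the small heat shock protein whose gene spans *Hspb2*, was at 16.75, 16.02, 15.59 and 16.07 in scrmb and at 16.95, 17.58, 17.27 and 15.93 in MYTHO. As for *Hspb1*, animals A, B and C were higher and animal D lower, and *Cryab* differed by 0.82 ± 0.34 (limma adjusted p = 0.357). Of 20 Hsp90 co-chaperones, 2 were higher (*Cdc37* by 0.68 and *Ttc4* by 0.40) and 2 lower. *Fkbp4* (FKBP52) was at 10.30, 10.86, 10.86 and 10.87 in scrmb and at 9.98, 9.90, 9.75 and 10.22 in MYTHO, and *Ppid* (a cyclophilin) was at 11.74, 12, 11.76 and 11.22 in scrmb and at 10.94, 11.12, 11.08 and 10.96 in MYTHO. For these immunophilins, which bind Hsp90, no MYTHO array reached the lowest scrmb array, and they differed by -0.76 ± 0.20 and -0.66 ± 0.19 (limma adjusted p = 0.155 and 0.213).

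A list of 13 further genes around CCT held its remaining subunit *Tcp1*, 6 prefoldin genes, whose products deliver actin and tubulin to CCT, the CCT cofactors *Pdcl*, *Pdcl3* and *Txndc9*, and the chaperonin-like *Mkks*, *Bbs10* and *Bbs12*. Of these 13 genes, 1 was lower and none higher, with a median of -0.15. This was *Pfdn2*, at 10.29, 10.36, 11.17 and 10.10 in scrmb and at 9.37, 9.25, 8.60 and 9.33 in MYTHO. The groups did not overlap, and its difference was -1.34 ± 0.26 (limma adjusted p = 0.0839). Of 8 genes for heat shock factors and their regulators, 1 was higher (*Hsbp1l1* by 0.93) and none lower. Of 10 partners in chaperone-assisted selective autophagy, 2 were higher (*Cryab*, and *Stx18* by 0.52), and of 8 myosin and sarcomere chaperones 1 was higher (*Cryab*) and 1 lower (*Smyd1*, by a difference of -0.49). Of 14 mitochondrial partners and proteases, 1 was higher (*Lonp1* by 0.62), and of 21 ER folding genes none passed the unadjusted p in either direction.

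The heat shock element core GAANNTTC was present in the window of 17 of the 74 members with one (23.0%), against 9.04% of 27025 genes with windows of the same length. A further inverted unit at the same spacing was present in *Dnajb6*, *Hspd1*, *Hspe1* and *Hsph1* (5.41% of the members, against 0.662% of all genes). These counts are by gene and not all independent, since *Hspd1* and *Hspe1* hold the same site between them. *Hspa1a* and *Hspa1b* have nearly the same window and share a probe set, so their common difference enters the values below for each of them. The 17 members had a median difference of 0.195, from -0.42 for *Dnaja1* to 1.15 for *Bag3*, and 9 of them were above 0. By the unadjusted p, 2 of the 17 were higher (*Bag3* and *Dnajc27*) and 1 was lower (*Dnaja1*), against 4.81% and 7.58% of all probe sets. The 57 members with a window and no match had a median of 0.0825, from -0.40 to 1.88, with 33 above 0, 3 higher and none lower. A match describes letters in a window and does not show that heat shock factor binds there.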

How the data were processed

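Clariom S Mouse arrays were run on Trizol RNA of 8 GAS muscles after biotin labelling. The authors deposited log2 signals per probe set from the Transcriptome Analysis Console version 4.0.1 with default settings. Per the file headers these are SST-RMA values, background-corrected, quantile normalized and summarised by gene, with annotation release 36 on mm10. Values carry 2 decimals, the lowest being 2.38 and the upper limit 19.93, which no member reached. The deposited group averages, fold changes and p-values were not used. Each symbol was read from the probe set with the highest mean log2 signal. Probe-level and detection values were not used here, so a dim signal has no background limit beside it.

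The MYTHO and scrmb arrays were compared in R version 4.3.3 with limma (version 3.58.1, lmFit and eBayes, MYTHO minus scrmb, two-sided, Benjamini-Hochberg over all 22206 probe sets), without a block, and the script was tested on simulated data. The number of arrays, 4 per group, limits the precision. The legs of 1 animal are paired by design, and the deviations of same-animal arrays from their group means correlated by 0.00266, -0.00145, 0.135 and 0.0871 across probe sets for animals A to D. The members and lists were chosen with earlier results of these data known. Genes given with every array were the 12 members with the lowest unadjusted p, the brightest of each class and 17 known from muscle or the heat shock response (27 genes in all), and of non-members those of the lists with an unadjusted p under 0.05, of which the text gives some and 1 is not reported here. Alternatives were quantile normalization, median centring, filters on dim probe sets, a robust variance trend, array weights, other choices of probe set, fixed and random blocks by animal, other thresholds, and leaving out arrays. Leaving out both arrays of an animal was added after seeing the data. Promoter windows came from RefSeq on GRCm38.p6. A planned check of protein motifs was not run, as no protein sequences were used here.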

Additional observations from a re-analysis of the deposited data

Results flagged for a closer look

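Of 72 groups of 4 arrays examined, 6 had 1 array far from the other 3 by Dixon's ratio (its gap to the nearest array over the range of the group), where chance flags about 1 in 20. For *Hspb7* the MYTHO array of animal D lay at 15.19 and the others between 17.84 and 18.02 (ratio 0.936). For the mean of the *Dnaj* class the scrmb array of animal C lay at 8.79 and the others between 8.89 and 8.91 (0.853).

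The slow-fibre list mean was set apart in both groups, in scrmb by animal A at 12.33 against 10.56 to 10.80 (0.865) and in MYTHO by animal D at 10.56 against 13.07 to 13.47 (0.864). For the fast-fibre list mean the scrmb array of animal D lay at 19.69 against 19.60 on the others (0.891). For *D230025D16Rik* the MYTHO array of animal C lay at 8.80 against 8.08 to 8.20 (0.833), and animal C also had the smallest difference in the targeted gene, -1.98, against -3.19 to -2.97 in the other animals.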

How the results depend on the processing

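No member passed an adjusted p under 0.05 under any alternative run. Of 617 values of 27 named genes, 597 kept their direction. The filters on dim probe sets, the variance trend and the blocks by animal leave a difference unchanged by construction, so no direction could turn there. By the unadjusted p the 8 members under 0.05 were less stable, with 40 of 181 values not under 0.05. The mean over the probe sets of a symbol left these 8 members as on the full table. For the class medians, 162 of 168 stayed within the replicate spread, and the variance trend and the blocks could not move them. The count at least 2-fold higher with an unadjusted p under 0.05, 2 on the full table, was 1 among the upper 75% and the upper 50% of probe sets, 0 with a robust variance trend and 4 with a fold minimum of 1.5, and ran from 0 to 2 with arrays or animals left out. The count higher by the unadjusted p (6) ran from 1, without animal C, to 9, without the MYTHO array of animal D. The count lower (2) was 1 after median centring, among the upper 75% and the upper 50% of probe sets and without probe sets naming several genes, and ran from 0 to 3 with arrays or animals left out. Members without overlap were 5 higher after quantile normalization, and ran from 2 to 12 higher and from 1 to 5 lower with arrays or animals left out, where fewer arrays overlap less by construction. Likewise, with 1 animal left out, members with 1 direction in the remaining 3 ran from 16 to 23 higher and from 12 to 16 lower.

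The Hsp70 median was 0.271 without probe sets naming several genes. The *Dnaj* median was 0.02 after median centring, 0.0325 and 0.065 among the upper 75% and 50% of probe sets, and ran from -0.0442 to 0.0683 with arrays or animals left out. Differences near 0 reversed for *Hspa9* after median centring (0.0275), for *Hsp90aa1* (-0.00769) and *Dnajb1* (-0.0404) with array weights, and with arrays or animals left out, where *Hspb8* ran from -0.49 to 0.14, *Hspa5* from -0.0567 to 0.106, *Hspa9* from -0.0925 to 0.144, *Hsp90aa1* from -0.0883 to 0.242, *Hsp90b1* from -0.138 to 0.02 and *Dnajb1* from -0.217 to 0.23. The cause was not tested. For *D230025D16Rik* (-2.81) the exact test with labels exchanged within animals, added after seeing the data, gave p = 0.125. The replicate block by animal changed no adjusted call, and 8 members were then higher and 2 lower by the unadjusted p (against 4.94% and 7.66% of all probe sets in that fit). The block planned on the numbers in the sample titles was not run, since columns could not be tied to them.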
